A study of Homo sapiens with 12 samples.

Results

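The 10 genes described here are the repressors of the circadian clock and the direct output genes of its loops: PER1, PER2, PER3, CRY1, CRY2, NR1D1, NR1D2, DBP, TEF and CIART. They were matched by symbol among the 61906 genes of both count tables, and all 10 were found and passed the expression filter in each experiment. The set was chosen by earlier measured values of these data, so the changes of its members are given as a description and support no test of their own. The series measured RNA in MOLM-14, a human acute myeloid leukemia line, in 12 libraries of 4 groups with 3 biological replicates each. In the knockdown experiment, cells carried a lentiviral shRNA against DDX5 (shDDX5) or a control shRNA (shControl), were infected by spinoculation, and were collected at 96 hours. In the compound experiment, cells were kept for 6 hours with 100 nM RX-5902, a small molecule known as a ligand of phosphorylated DDX5, or with 0.1% DMSO. The experiments had separate control libraries. The labels name no rescue of DDX5 and no synchronization of the clock, and each experiment had a single collection time, so a lower level and a shifted phase of a rhythm cannot be told apart.

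The mammalian clock is a transcriptional feedback loop. CLOCK and BMAL1 bind E-boxes and activate the PER and CRY genes, whose proteins enter the nucleus as a complex and repress CLOCK and BMAL1. The nuclear receptors NR1D1 and NR1D2 (REV-ERB alpha and beta) form a further loop, since they are induced through E-boxes and repress BMAL1 through response elements shared with the ROR receptors. DBP and TEF are transcription factors of the PAR bZIP family that pass the rhythm on through D-boxes, where NFIL3 acts as a repressor. DDX5 has a known place in this system in mouse, where it was reported among the proteins of nuclear PER complexes. CLOCK and BMAL1 have been reported to support the growth of acute myeloid leukemia cells.

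The binding motifs of these loops were looked up in promoter windows from RefSeq on GRCh38.p14, which hold 250 bases before and 50 after each start site. The 10 genes had 14 windows, because PER3, CRY2, NR1D2 and TEF have a pair of start sites each. An E-box (CACGTG) lay in 5 of the 14 windows, those of PER1, the second start of NR1D2, both starts of TEF and CIART, against 7.26% of all 35116 windows. The variant E'-box (CACGTT, either strand) was present in 4 windows, of PER2, CRY1, the second start of CRY2 and NR1D1, against 5.34% of all windows. A D-box (TTATGTAA or TTACGTAA, either strand) stood in 3 windows, of PER2, PER3 and NR1D2, against 1.01% of all windows. The core of a REV-ERB and ROR element (TAGGTCA or TGGGTCA, either strand) was found in 2 windows, of CRY2 and NR1D2, against 5.69% of all windows. No window of the 10 genes held the cAMP response element TGACGTCA, which 1.85% of all windows hold. DBP had no match to any of these motifs. The motifs do not overlap one another in these windows, and a match is a description of letters and not a binding site.

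The 250 bases upstream of the start site are shown for 4 genes whose levels differed most, by at least 2-fold, in at least 1 of the experiments. All are written 5′ to 3′ on the strand of the gene, with motif matches in capitals, and positions count the first matching base upstream of the start site. NR1D1 lies on the minus strand at chr17:40100590-40100839 and holds an E'-box, read on its other strand, at -168. The window of the second start site of NR1D2, 835 bases after the first, lies on the plus strand at chr3:23945871-23946120. From left to right it holds a D-box on the other strand, an E-box, a receptor element on the other strand and a further E-box. TEF, shown at the first of its start sites (chr22:41367205-41367454, plus strand), has an E-box at -195. CIART (chr1:150282304-150282553, plus strand) has 3 E-boxes, at -129, -71 and -57, and 0.094% of all windows hold 3 or more.
NR1D1: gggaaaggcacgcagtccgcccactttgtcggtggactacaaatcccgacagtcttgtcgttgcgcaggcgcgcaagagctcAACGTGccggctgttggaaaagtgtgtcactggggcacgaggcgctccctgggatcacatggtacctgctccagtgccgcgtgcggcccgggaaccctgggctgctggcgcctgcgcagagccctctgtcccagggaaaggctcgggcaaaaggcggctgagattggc
NR1D2: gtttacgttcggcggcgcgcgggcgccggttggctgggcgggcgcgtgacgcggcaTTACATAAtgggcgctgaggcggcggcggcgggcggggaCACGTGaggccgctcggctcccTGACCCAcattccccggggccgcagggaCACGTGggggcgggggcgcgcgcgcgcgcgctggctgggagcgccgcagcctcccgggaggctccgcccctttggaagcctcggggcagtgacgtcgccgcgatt
TEF: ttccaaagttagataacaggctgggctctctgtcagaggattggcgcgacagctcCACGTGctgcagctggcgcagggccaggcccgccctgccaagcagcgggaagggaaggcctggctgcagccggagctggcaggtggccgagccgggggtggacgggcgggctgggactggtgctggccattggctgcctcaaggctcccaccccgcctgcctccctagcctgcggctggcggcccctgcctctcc
CIART: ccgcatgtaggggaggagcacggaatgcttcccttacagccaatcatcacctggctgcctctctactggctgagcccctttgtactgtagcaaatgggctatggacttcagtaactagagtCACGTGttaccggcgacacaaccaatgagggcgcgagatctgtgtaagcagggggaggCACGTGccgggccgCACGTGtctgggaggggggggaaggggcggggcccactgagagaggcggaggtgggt

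**Figure D1:**
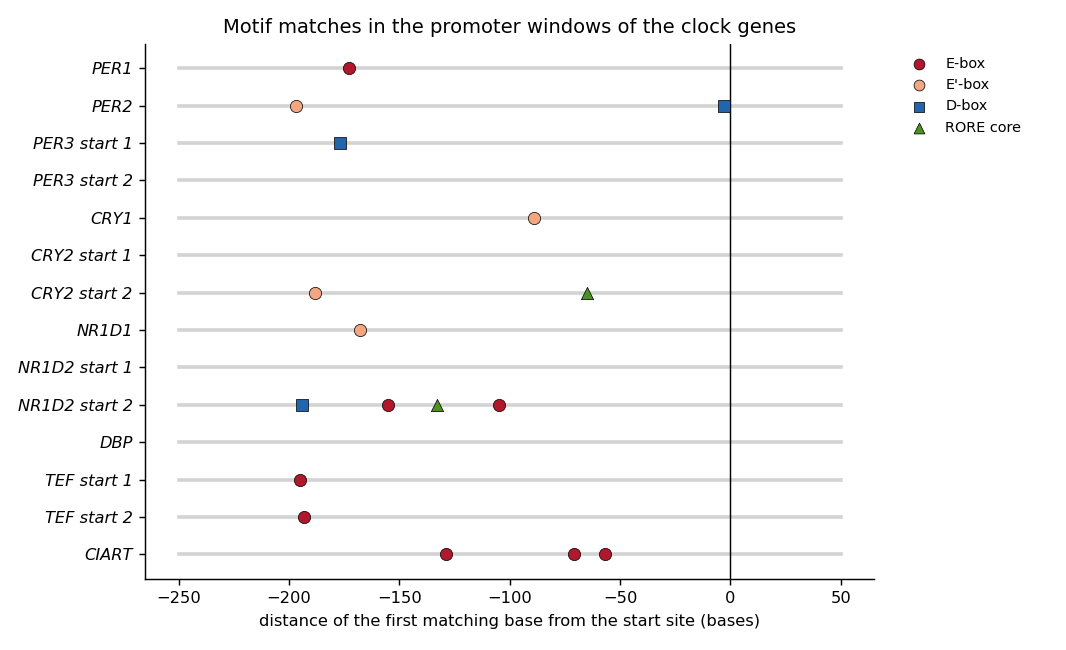
Positions of motif matches (first matching base, in bases from the start site, at the vertical line) in the 14 promoter windows of the 10 genes; grey bars are the windows. CIART carries 3 E-boxes and the second NR1D2 start carries 4 matches, while DBP and the first starts of CRY2 and NR1D2 and the second start of PER3 carry none.

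The knockdown libraries held 17603589 to 19674098 counts each, and the compound libraries 20264250 to 20367575. DDX5 RNA, the check of the labels, was 159, 164 and 161 CPM (the read count scaled by library size and TMM factor) in shDDX5 libraries, against 755, 718 and 730 CPM in shControl libraries. It was 1108, 1067 and 1023 CPM with RX-5902, against 854, 868 and 863 CPM with DMSO. One library stood apart. The chi-square per gene was 46.3 and 46.4 between shDDX5 replicate 1 and the other shDDX5 libraries, against 1.68 to 5.93 for the other 10 replicate pairs, so knockdown values are also given without it. That library was the lowest of the shDDX5 group for 8 of the 10 clock genes. All 10 myeloid markers were detected, while the lineage genes CD3G, MS4A1, HBB, HBA1 and DCN had 0 counts in every library. The summed myeloid markers, in the knockdown experiment mostly LYZ, ran from 13539 to 14914 CPM in shDDX5 and from 4396 to 4754 CPM in shControl libraries, and from 1737 to 1775 CPM with RX-5902 and 1694 to 1712 CPM with DMSO. Of these 10 markers, edgeR called 5 higher and 4 lower in shDDX5 cells, and 5 higher and 5 lower with RX-5902. The summed T cell, B cell, erythroid, epithelial and fibroblast markers stayed at or under 6.06 CPM per list and library, with COL1A1 the main one, at 4.76 CPM on average in shDDX5 and 0.577 CPM in shControl cells. The part of these marker differences in the clock gene values was not tested. In bulk RNA, fewer cells that express a gene and less RNA per cell cannot be told apart.

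In shDDX5 cells, 6 of the 10 clock genes were called lower (PER1, PER2, CRY1, NR1D1, NR1D2 and CIART), 2 were called higher (CRY2 and TEF), and PER3 and DBP were not called. With RX-5902, 8 were called lower and 2 higher (CRY1 and CIART). A call means an edgeR quasi-likelihood adjusted p under 0.05 over all genes tested, which in the knockdown covered 56.7% of 14463 genes (28.4% higher, 28.3% lower). In the compound experiment it covered 64.1% of 13941 genes (32.2% higher, 31.9% lower). The median log2 fold change of the 10 genes was -0.47 in each experiment, or -0.35 in the knockdown without shDDX5 replicate 1, and that of all tested genes lay within 0.0123 of 0. PER1, PER2, NR1D1 and NR1D2 were called lower in both experiments, and CRY1, CRY2, TEF and CIART were called in opposite directions. The same members were called without shDDX5 replicate 1, in the same directions, where the call covered 71.4% of 14916 genes tested (35.7% higher, 35.7% lower).

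**Figure D2:**
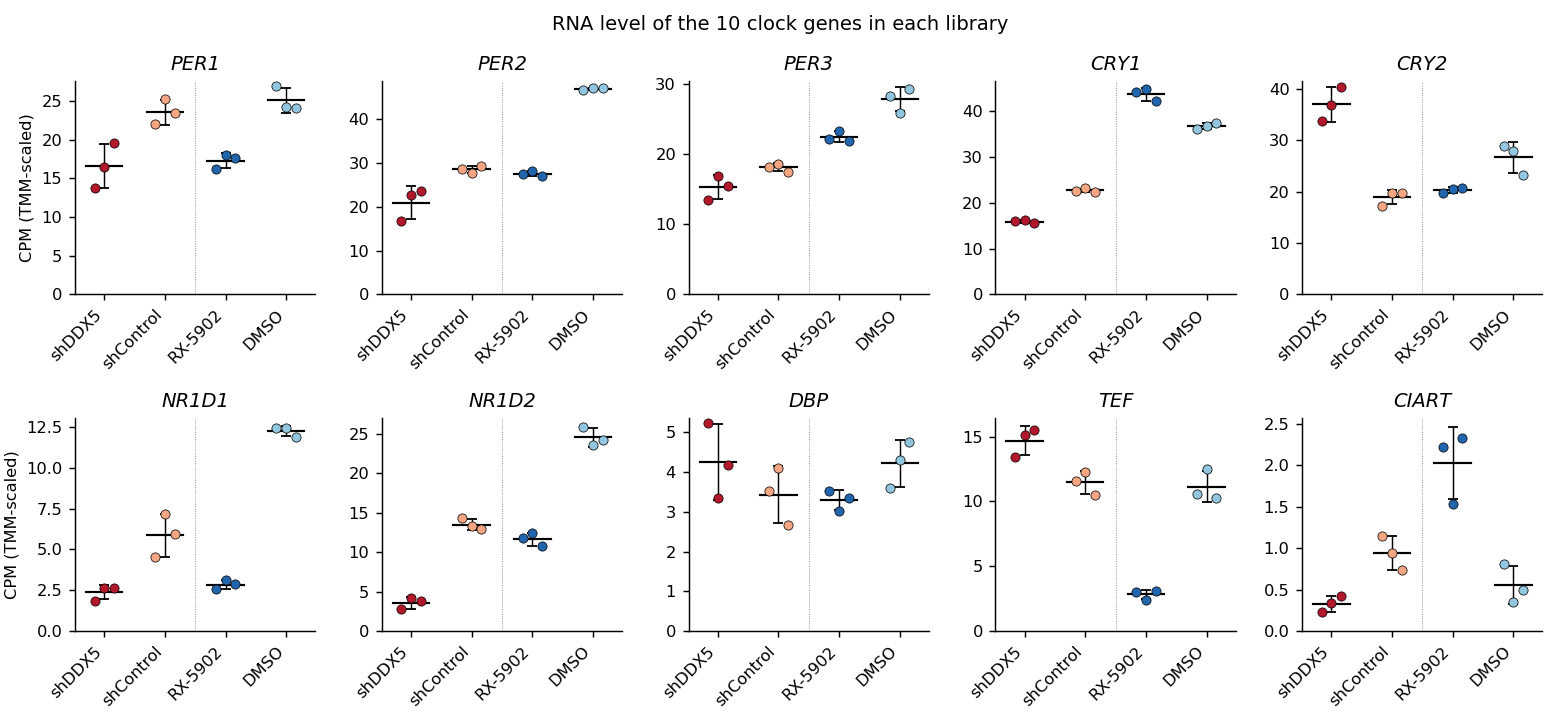
CPM (TMM-scaled, linear axes from 0) of the 10 clock genes in each of the 12 libraries; points are libraries in order of replicate number, bars the group mean with its SD (n = 3). NR1D1 and NR1D2 lie lower in both shDDX5 and RX-5902 libraries than in their controls, while CRY1, CRY2, TEF and CIART shift in opposite directions in the 2 experiments.

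The 3 PER genes encode subunits of the repressor complex. PER1 (chr17:8140472-8156506 on GRCh38, minus strand) had 13.8, 16.4 and 19.5 CPM in shDDX5 libraries, against 22, 25.2 and 23.4 CPM in shControl libraries. Under the compound it had 16.2, 18 and 17.6 CPM with RX-5902, against 26.9, 24.2 and 24.1 CPM with DMSO. The groups did not overlap in either experiment, and the log2 fold changes were -0.50 (SE 0.13) and -0.54 (SE 0.07), or -0.39 (SE 0.08) in the knockdown without shDDX5 replicate 1. PER2 (chr2:238244044-238290102, minus strand), the member with the strongest role in the core loop in mouse, had 16.7, 22.7 and 23.6 CPM in shDDX5 libraries, against 28.7, 27.7 and 29.3 CPM in shControl libraries. It had 27.5, 28.2 and 27.1 CPM with RX-5902, against 46.6, 47.1 and 47.1 CPM with DMSO. Both treated groups lay wholly below their controls. Its log2 fold change was -0.44 (SE 0.13) in the knockdown, -0.31 (SE 0.07) there without shDDX5 replicate 1, and -0.77 (SE 0.05) with RX-5902. The knockdown call of PER2 was lost when shControl replicate 1 or shControl replicate 3 was left out, with the change at -0.45 and -0.43.

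PER3 (chr1:7784291-7845177, plus strand), a PER gene that the core loop can run without, was the least changed of the 3. It had 13.5, 16.9 and 15.4 CPM in shDDX5 libraries, against 18.2, 18.6 and 17.5 CPM in shControl libraries, and 22.2, 23.3 and 21.9 CPM with RX-5902, against 28.3, 25.9 and 29.3 CPM with DMSO. All treated libraries lay below their controls, by a log2 fold change of -0.25 (SE 0.10, not called) in the knockdown and -0.31 (SE 0.06) with RX-5902. Without shDDX5 replicate 1 the knockdown value was -0.17 (SE 0.08), and without shDDX5 replicate 2 it was -0.33 and was called. PER3 shares 868 exon bases, 10.7% of its exons, with UTS2 on the opposite strand, and the strand setting of the counting was not given in the sources used here. UTS2, the urotensin 2 gene, averaged 3.54 CPM in shDDX5 and 4.62 CPM in shControl cells (log2 fold change -0.39, edgeR adjusted p = 0.0498), and was not called with RX-5902 (-0.14, adjusted p = 0.437). How reads of the shared stretch were assigned was not given either. Per length, PER2 made up 41.7% ± 1.41 (SD) of the summed PER RNA in shDDX5 and 42.7% ± 1.77 in shControl libraries, and 43.4% ± 0.704 with RX-5902, against 49.4% ± 1.37 with DMSO. The PER2 share was therefore lower with the compound in all 3 libraries, while its ranges overlapped in the knockdown.

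The cryptochromes CRY1 and CRY2 bind CLOCK and BMAL1 directly and are the main repressors of the loop. Their RNA differed from the control in opposite directions within each experiment, and the direction of each was opposite between the experiments. CRY1 (chr12:106991364-107093549, minus strand) had 15.9, 16.2 and 15.5 CPM in shDDX5 libraries, against 22.6, 23.1 and 22.4 CPM in shControl libraries. It had 44, 44.8 and 42.1 CPM with RX-5902, against 36, 36.6 and 37.4 CPM with DMSO. CRY1 thus lay below the control in the knockdown (log2 fold change -0.52, SE 0.08, and -0.52 again without shDDX5 replicate 1) and above it with the compound (0.25, SE 0.05), with no overlap in either. CRY2 (chr11:45847118-45883248, plus strand) had 33.7, 36.9 and 40.4 CPM in shDDX5 libraries, against 17.3, 19.7 and 19.8 CPM in shControl libraries. It had 19.7, 20.6 and 20.7 CPM with RX-5902, against 29, 27.9 and 23.3 CPM with DMSO. CRY2 was 1.96-fold higher in the knockdown (log2 fold change 0.97, SE 0.10, or 1.03 without shDDX5 replicate 1) and 1.31-fold lower with RX-5902 (-0.39, SE 0.07), again with no overlap.

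Counted per length (RPKM, the CPM divided by the gene length in kilobases), the ratio of CRY1 to CRY2 was 0.612, 0.569 and 0.498 in shDDX5 libraries, against 1.69, 1.52 and 1.47 in shControl libraries. With RX-5902 it was 2.89, 2.82 and 2.64, against 1.61, 1.7 and 2.08 with DMSO. CRY2 RNA was thus the more abundant cryptochrome RNA only in the shDDX5 libraries among the 12, and CRY1 RNA in the other 9. The knockdown change minus the compound change was 1.34 (SE 0.13) for CRY2 and -0.78 (SE 0.09) for CRY1 on the log2 scale, both called in the fit of that difference, which called 52.7% of 15386 genes (24.1% higher, 28.6% lower).

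**Figure D3:**
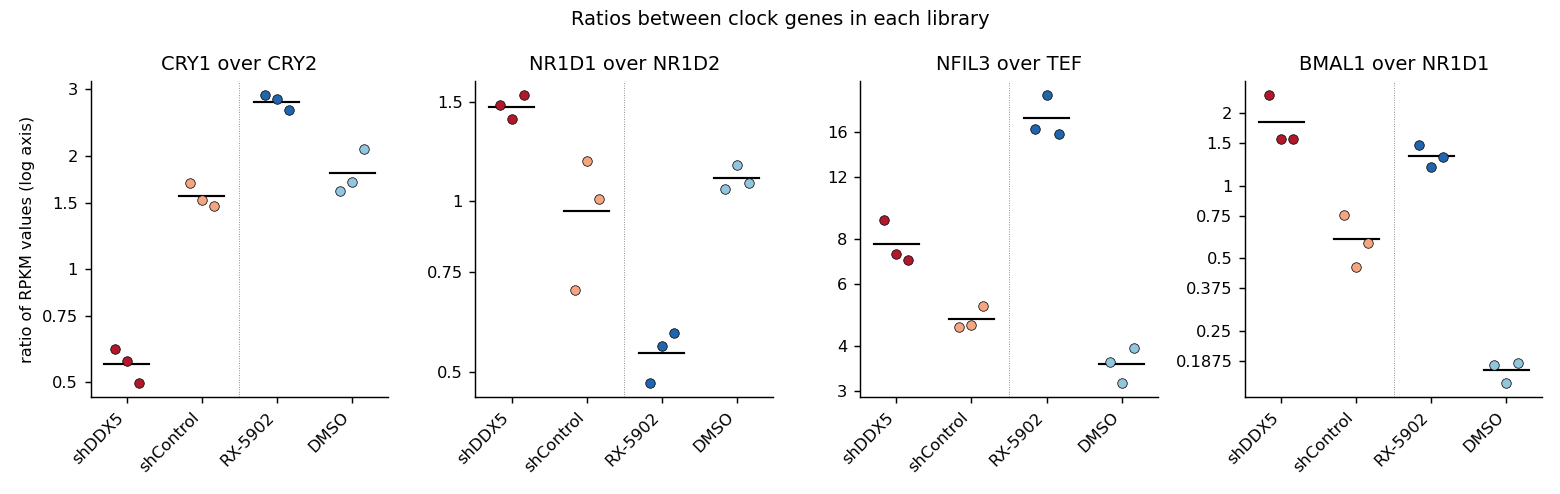
Ratios of RPKM values (log axes, own range in each panel) in each library; points are libraries in order of replicate number and bars are group means (n = 3). CRY1 over CRY2 averages 0.559 in shDDX5 and 1.56 in shControl libraries, and 2.78 with RX-5902 against 1.80 with DMSO, whereas NFIL3 over TEF and BMAL1 over NR1D1 lie above their controls in both experiments.

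NR1D1 and NR1D2, the heme-binding REV-ERB receptors that repress BMAL1, had some of the largest differences of the set, and both were lower in both experiments. NR1D1 (chr17:40092793-40100589, minus strand) had 1.87, 2.66 and 2.66 CPM in shDDX5 libraries, against 4.53, 7.15 and 5.92 CPM in shControl libraries. It had 2.56, 3.12 and 2.86 CPM with RX-5902, against 12.4, 12.4 and 11.9 CPM with DMSO. Every treated library lay below every control, 2.44-fold on average in the knockdown (log2 fold change -1.29, SE 0.22, or -1.14 without shDDX5 replicate 1) and 4.29-fold with RX-5902 (-2.10, SE 0.11). NR1D2 (chr3:23945286-23980617, plus strand) had 2.78, 4.19 and 3.81 CPM in shDDX5 libraries, against 14.3, 13.3 and 12.9 CPM in shControl libraries. It had 11.8, 12.4 and 10.8 CPM with RX-5902, against 25.9, 23.6 and 24.2 CPM with DMSO. NR1D2 was 3.75-fold lower in the knockdown (-1.91, SE 0.15, or -1.76 without shDDX5 replicate 1) and 2.11-fold lower with RX-5902 (-1.08, SE 0.07), with wide gaps between the groups.

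The size order of the pair was reversed between the experiments, with NR1D2 the more reduced in the knockdown and NR1D1 the more reduced with the compound. The ratio of NR1D1 to NR1D2 per length was 1.48, 1.4 and 1.54 in shDDX5 libraries, against 0.698, 1.18 and 1.01 in shControl libraries. It was 0.478, 0.555 and 0.585 with RX-5902, against 1.05, 1.16 and 1.08 with DMSO. The difference of the changes, knockdown minus compound, was 0.80 (SE 0.24) for NR1D1 and -0.85 (SE 0.16) for NR1D2, and both were called in that fit.

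The level of NR1D1 is less certain than the others. Its gene overlaps THRA, the thyroid hormone receptor alpha gene, tail to tail on opposite strands, and 473 bases, 18% of the NR1D1 exons, are shared. THRA averaged 22.7 CPM in shDDX5 and 55.2 CPM in shControl cells (log2 fold change -1.28, SE 0.14, edgeR adjusted p = 0.000126). It averaged 21.1 CPM with RX-5902 and 45.5 CPM with DMSO (-1.11, SE 0.06, adjusted p = 1.31e-17). The NR1D1 to THRA ratio per length was 0.295 ± 0.0038 (SD) in shDDX5 and 0.295 ± 0.055 in shControl libraries, so the mean ratio was the same in both groups of the knockdown. With RX-5902 it was 0.377 ± 0.043, against 0.749 ± 0.0146 with DMSO. How much of the NR1D1 count came from THRA transcripts was not tested. NR1D2 overlaps NKIRAS1 on the opposite strand with 0 shared exon bases, and NKIRAS1 was higher in shDDX5 cells (0.81, adjusted p = 0.000937) and not called with RX-5902 (-0.13, adjusted p = 0.281).

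CIART (chr1:150282543-150287093, plus strand), also called CHRONO, encodes a repressor that binds BMAL1. It had the fewest reads of the members, with 4, 6 and 8 reads in shDDX5 libraries, against 23, 19 and 15 reads in shControl libraries. It had 46, 32 and 48 reads with RX-5902, against 16, 7 and 10 reads with DMSO. As CPM these were 0.227, 0.34 and 0.418 in shDDX5, against 1.15, 0.936 and 0.74 in shControl libraries, and 2.22, 1.53 and 2.33 with RX-5902, against 0.809, 0.354 and 0.501 with DMSO. CIART lay below its control in the knockdown (log2 fold change -1.49, SE 0.34, or -1.29 without shDDX5 replicate 1) and above it with the compound (1.86, SE 0.27), and the groups did not overlap in either experiment. It had the widest standard errors of the set. Its difference between the experiments, -3.37 (SE 0.48), was the largest of the 10.

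**Figure D4:**
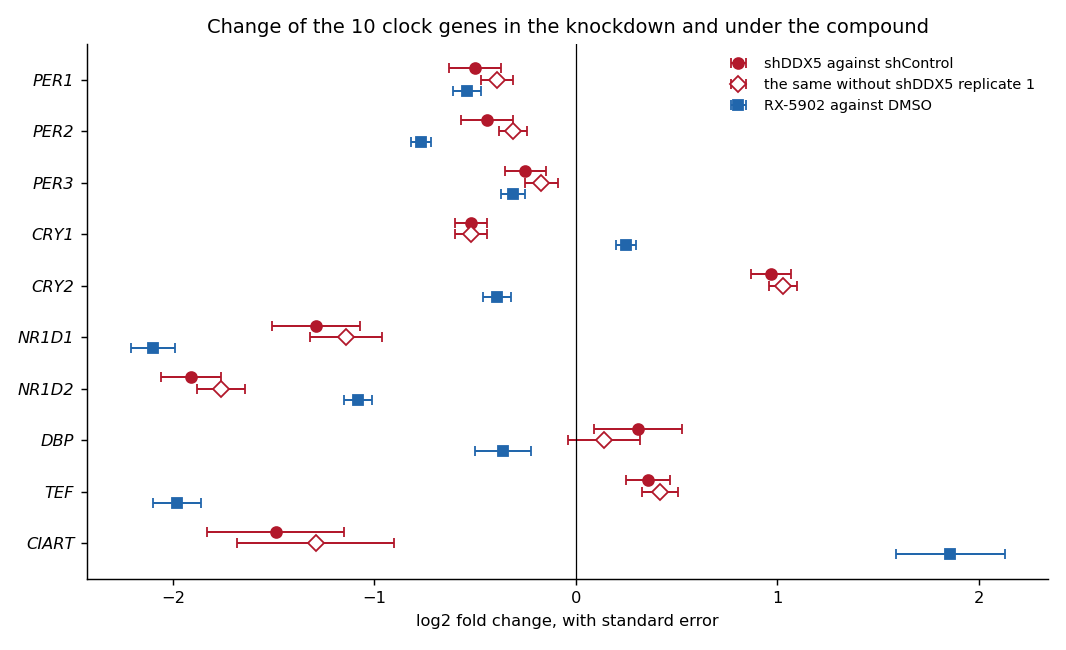
Log2 fold change with its standard error of the 10 clock genes in shDDX5 against shControl (filled circles; open diamonds without shDDX5 replicate 1) and in RX-5902 against DMSO (squares), from edgeR fits on 6 libraries each (5 for the diamonds). The PER genes, NR1D1 and NR1D2 lie left of 0 in both, and CRY1, CRY2, TEF and CIART lie on opposite sides.

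Of the whole set, the PAR bZIP output gene TEF differed most between the experiments after the repressor gene CIART. TEF (chr22:41367333-41399326, plus strand) had 13.4, 15.1 and 15.5 CPM in shDDX5 libraries, against 11.6, 12.3 and 10.5 CPM in shControl libraries. It had 3.04, 2.4 and 3.06 CPM with RX-5902, against 10.6, 12.5 and 10.3 CPM with DMSO. TEF was 3.93-fold lower with the compound (log2 fold change -1.98, SE 0.12), where the highest treated library stood far under the lowest control. In the knockdown it was modestly higher without overlap (0.36, SE 0.11, or 0.42 without shDDX5 replicate 1). That knockdown call was lost, at values of 0.29 to 0.36, when shControl replicate 1 or 3 or shDDX5 replicate 2 or 3 was left out. The difference of the changes was 2.32 (SE 0.17) and was called.

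DBP (chr19:48630030-48637379, minus strand), a classical target of CLOCK and BMAL1, was low and little changed. It had 5.23, 3.34 and 4.18 CPM in shDDX5 libraries, against 3.53, 4.09 and 2.66 CPM in shControl libraries, which overlapped (0.31, SE 0.22, or 0.14 without shDDX5 replicate 1, not called). It had 3.52, 3.02 and 3.35 CPM with RX-5902, against 3.59, 4.3 and 4.76 CPM with DMSO. These did not overlap, by a narrow margin, and the change of -0.36 (SE 0.14) was called by edgeR and not by DESeq2. The compound call of DBP was lost without DMSO replicate 2 (-0.35), DMSO replicate 3 (-0.27) or RX-5902 replicate 2 (-0.30). DBP shares 661 exon bases, 10.2% of its exons, with SPHK2 on the opposite strand, a sphingosine kinase gene that was not called in either experiment (-0.21 in the knockdown, adjusted p = 0.174, and -0.12 with RX-5902, adjusted p = 0.137, edgeR). Per length, TEF exceeded DBP by a ratio of 4.96 ± 1.35 (SD) in shDDX5 and 4.69 ± 0.657 in shControl libraries, and by 1.18 ± 0.0827 with RX-5902, against 3.69 ± 0.622 with DMSO. The knockdown change minus the compound change was not called for DBP (0.65, SE 0.27), nor for PER1 (0.01, SE 0.15), PER2 (0.30, SE 0.13) and PER3 (0.04, SE 0.12). For PER2 it was called without shDDX5 replicate 1 and by DESeq2.

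Levels were also compared between the 10 genes per length. In shDDX5 cells CRY2 led at 5.97 ± 0.543 RPKM (SD), apart from CRY1 at 3.32, TEF at 3.12, PER2 at 3.06, PER1 at 2.37 and PER3 at 1.88 RPKM, each of which overlapped its neighbour in that order. NR1D1 at 0.912, DBP at 0.655 and NR1D2 at 0.62 RPKM followed, again overlapping, and CIART stood apart at 0.115 RPKM. In shControl cells CRY1 led at 4.74 RPKM, followed by PER2 at 4.16, PER1 at 3.36 and CRY2 at 3.05 RPKM, of which only the last pair overlapped. TEF, NR1D2, NR1D1 and PER3 lay together between 2.23 and 2.43 RPKM, then came DBP at 0.529 and CIART at 0.33 RPKM. With RX-5902 CRY1 led at 9.12 RPKM, then PER2 at 4.01, CRY2 at 3.28, PER3 at 2.77, PER1 at 2.47, NR1D2 at 2.01 and NR1D1 at 1.08 RPKM, with no overlap between neighbours. CIART at 0.712, TEF at 0.602 and DBP at 0.508 RPKM closed the order and overlapped. With DMSO CRY1 led at 7.67 RPKM, then PER2 at 6.83, NR1D1 at 4.65, CRY2 at 4.31 and NR1D2 at 4.24 RPKM. There CRY2 overlapped NR1D1, NR1D2 and PER1, while NR1D1 and NR1D2 did not overlap each other. PER1 at 3.58 and PER3 at 3.43 RPKM overlapped too, followed by TEF at 2.37, DBP at 0.65 and CIART at 0.195 RPKM. By mean level NR1D1 was thus the third of the 10 with DMSO and the seventh with RX-5902, and CRY2 the first in shDDX5 and the fourth in shControl cells. The summed CPM of the 10 genes ran from 117 to 141 in shDDX5 and from 144 to 152 in shControl libraries, and from 152 to 157 with RX-5902 and 213 to 220 with DMSO.

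The other genes of the clock, listed by name, gave the surroundings of these changes. Of 17 such genes 12 were tested in the knockdown and 13 in the compound experiment. In the knockdown 5 rose, 3 fell and 4 were not called, where 56.7% of all genes tested were called. Without shDDX5 replicate 1 these counts were 7, 3 and 2, where 71.4% of all genes were called. With RX-5902 9 rose, 1 fell and 3 were not called, where 64.1% of all genes were called. RORB had 0 counts in every library, and NPAS2, HLF and BHLHE41 were below the filter in both experiments, as was RORA in the knockdown.

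Among the activators, BMAL1, the partner of CLOCK and the target of NR1D1 and NR1D2, rose in both experiments. It had 11.7, 10.9 and 11 CPM in shDDX5 libraries, against 9.06, 8.67 and 9.03 CPM in shControl libraries (log2 fold change 0.33, SE 0.10, edgeR adjusted p = 0.0184). It had 9.99, 9.83 and 9.85 CPM with RX-5902, against 5.86, 4.96 and 5.77 CPM with DMSO (0.84, SE 0.10, adjusted p = 1.2e-08). The groups did not overlap, but the knockdown call was lost under DESeq2 (adjusted p = 0.0776) and without any of the 3 shControl libraries (0.0562 to 0.087). The ratio of BMAL1 to NR1D1 per length was 1.83 ± 0.467 (SD) in shDDX5 and 0.599 ± 0.15 in shControl libraries, and 1.33 ± 0.144 with RX-5902, against 0.172 ± 0.0175 with DMSO. CLOCK rose with RX-5902 (0.37, adjusted p = 2.56e-06) and was not called in the knockdown (-0.01, SE 0.15). BMAL2, a paralog of BMAL1, fell in the knockdown (-1.30, adjusted p = 0.00401), with an average of 0.498 CPM in shDDX5 and 1.24 CPM in shControl cells. It rose with RX-5902 (0.40, adjusted p = 0.000403), at 11.7 CPM against 8.86 CPM with DMSO. RORA, an activator at the elements that NR1D1 binds, was near the limit of detection and not called with RX-5902 (-0.68, adjusted p = 0.123), though it was called lower without RX-5902 replicate 1 (-1.22, adjusted p = 0.0222).

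Repressors of the loop outside the 10 genes were listed as well. NFIL3, the repressor that competes with DBP and TEF at D-boxes, had 53.2, 47.8 and 47.4 CPM in shDDX5 libraries, against 22.9, 24.7 and 23.7 CPM in shControl libraries (1.06, SE 0.09, adjusted p = 3.08e-05, edgeR). It had 21.7, 21.3 and 21.1 CPM with RX-5902, against 16.8, 17.4 and 17.7 CPM with DMSO (0.30, adjusted p = 0.000194). The ratio of NFIL3 to TEF per length was 7.78 ± 1.14 (SD) in shDDX5 and 4.77 ± 0.363 in shControl libraries, and 17.5 ± 2.47 with RX-5902, against 3.58 ± 0.395 with DMSO. In each experiment the lowest treated ratio was above the highest control ratio. BHLHE40, a repressor at E-boxes, rose in both (0.77, adjusted p = 6.7e-05, and 0.52, adjusted p = 4.72e-09). CIPC, an inhibitor of CLOCK, rose in the knockdown (0.57, adjusted p = 0.000984) and fell with RX-5902 (-0.70, adjusted p = 3.21e-11). TIMELESS, which in mammals also serves the replication fork, fell in the knockdown to 20.5 CPM in shDDX5 cells, against 121 CPM in shControl cells (-2.56, adjusted p = 3.63e-06), and was not called with RX-5902 (0.05, adjusted p = 0.24).

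Genes that set the life span of PER proteins were also listed. BTRC and FBXW11, the ligase subunits for PER proteins, rose with RX-5902 by 0.31 and 0.20, while FBXW11 fell in the knockdown (-0.89, edgeR adjusted p = 0.000145) and BTRC was not called there (-0.18). Of the PER kinases, CSNK1D rose with RX-5902 (0.20, adjusted p = 5.5e-05) and CSNK1E was not called (-0.08). In the knockdown neither was called (0.16 for CSNK1D and 0.21 for CSNK1E). Both were called there without shDDX5 replicate 1 (0.20 and 0.16), with a correction for gene length (0.34 and 0.32) and in 1 fit of all 12 libraries (0.18 and 0.23). GSK3B, a kinase of several clock proteins, rose in both experiments (0.63 and 0.45).

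**Figure D5:**
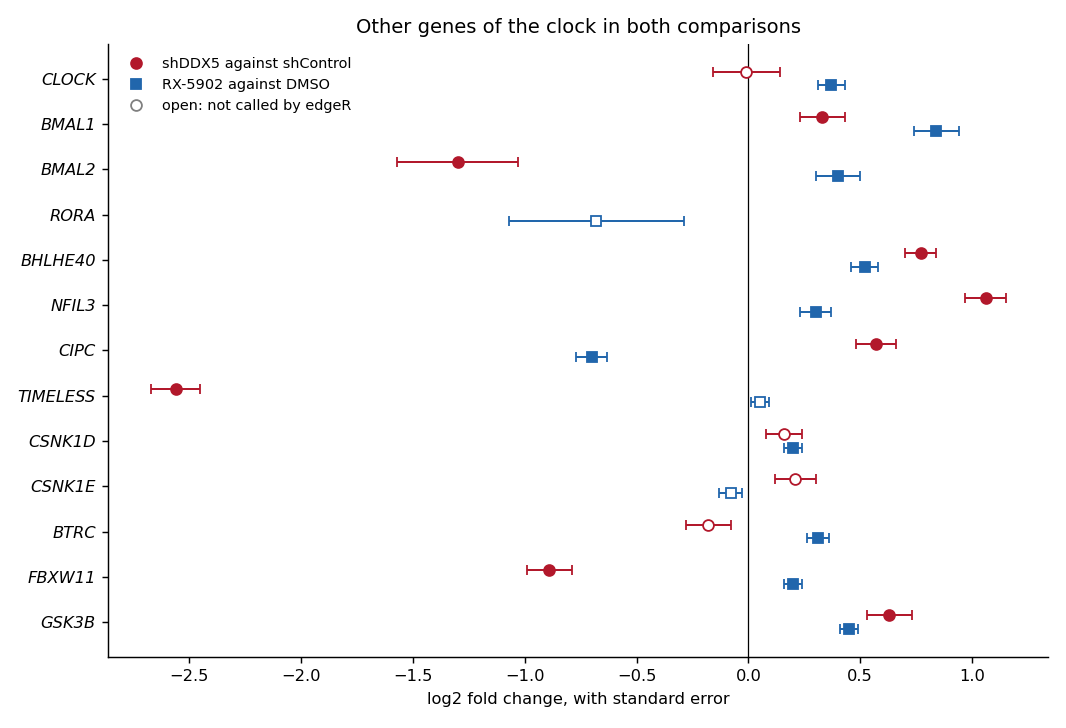
Log2 fold change with its standard error of the other clock genes that were tested, in shDDX5 against shControl (circles) and in RX-5902 against DMSO (squares); open symbols were not called by edgeR. BMAL1, BHLHE40, NFIL3 and GSK3B lie right of 0 in both experiments, and TIMELESS lies furthest left, at -2.56 in the knockdown.

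The list of proteins reported in or linked to PER complexes in mouse has 7 genes, DDX5 among them. In the knockdown 5 fell by edgeR, DDX5 included, and 2 were not called, where 56.7% of all genes tested were called. Without shDDX5 replicate 1 6 fell and 1 rose, where 71.4% of all genes were called. With RX-5902 3 rose and 2 fell, where 64.1% of all genes were called. DHX9, an RNA helicase, fell in both (-0.85, adjusted p = 0.000154, and -0.44, adjusted p = 1.68e-12), as did WDR5, a subunit of histone methyltransferases (-0.39 and -0.54). The RNA-binding partner SFPQ fell in the knockdown (-0.98, adjusted p = 3.78e-05) and was not called with RX-5902 (0.01), and the exonuclease XRN2 did likewise (-0.38 and 0.07). NONO and POLR2A were not called in the knockdown with all libraries, at 0.18 and -0.39, and were called without shDDX5 replicate 1, at 0.13 and -0.18, and in the fit of all 12 libraries, at 0.20 and -0.37. With RX-5902 both rose, by 0.10 and 0.18, and the call of NONO was lost without DMSO replicate 2 or 3 or RX-5902 replicate 2, with no filter on low counts (0.08) and with the length correction (0.04). Both compound calls were lost in the fit of all 12 libraries (0.14 for NONO and 0.21 for POLR2A), which left 1 gene of the list higher. DDX5 itself stood 0.31 higher with RX-5902 (SE 0.04, adjusted p = 1.47e-08).

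Of 9 genes listed as further rhythmic outputs, 2 rose, 4 fell and 3 were not called in the knockdown. There 56.7% of all genes tested were called. Without shDDX5 replicate 1 these counts were 3, 4 and 2, where 71.4% of all genes were called. With RX-5902 5 rose, 1 fell and 3 were not called, where 64.1% of all genes were called. TSC22D3, a glucocorticoid-induced leucine zipper gene, rose by 1.75 in both, with 28.9, 25.2 and 23.9 CPM in shDDX5, against 7.57, 7.2 and 8.43 CPM in shControl libraries (adjusted p = 1.06e-05). It had 13.1, 13.5 and 13 CPM with RX-5902, against 3.89, 3.79 and 4.06 CPM with DMSO (adjusted p = 2.36e-16, edgeR). KLF10, a transcription factor under clock control in mouse liver, rose by 0.65 in both (adjusted p = 0.000187 and 4.29e-11). WEE1, a mitotic kinase and classical E-box target, fell in the knockdown (-2.13, adjusted p = 3.79e-06) and was not called with RX-5902 (-0.04). NAMPT, the NAD salvage enzyme, fell in the knockdown (-0.62, adjusted p = 0.00033) and was not called with RX-5902 (-0.06). USP2, a deubiquitinase, rose with RX-5902 (0.64, adjusted p = 8.28e-09) and was not called in the knockdown (0.14). Of the cold-induced RNA-binding genes, RBM3 fell in both (-1.19 and -0.32) and CIRBP rose with RX-5902 (0.32). FKBP5, a chaperone of steroid receptors, fell in the knockdown (-0.77). The call of its small rise with RX-5902 (0.09, edgeR adjusted p = 0.0317) was lost without 4 of the 6 libraries in turn (DMSO replicate 1 or 2, RX-5902 replicate 1 or 2). That call was also lost under DESeq2 (0.08), with no filter (0.08), with the length correction (0.04) and in the fit of all 12 libraries (0.13). Each of these 4 settings left 4 genes of the list higher with RX-5902. LONRF3 was not called in either, at -0.13 and 0.03, but was called higher in the knockdown without shDDX5 replicate 1 (0.17).

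For each clock gene the gene of most similar pattern was taken as that with the highest Pearson correlation of log2 CPM over the 12 libraries, after centring each experiment. The search covered 9861 named genes whose mean reached 5 CPM, other members and Y-linked genes left out, and the libraries share their group structure, so the values only describe. NR1D2 was closest to KBTBD6, a ubiquitin ligase adaptor (r = 0.999), PER2 to the ribosome export factor LSG1 (0.998) and CRY1 to the decapping enzyme DCP2 (0.995). NR1D1 was closest to MYBBP1A, a nucleolar protein (0.993), PER1 to GATAD2A, a subunit of the NuRD complex (0.988), CRY2 to NCKIPSD (0.986), TEF to DFFA, the inhibitor of the apoptotic nuclease (0.986), and CIART to ZDHHC11 (0.969). PER3 was closest to the protease CAPN3 (0.955), and DBP had the weakest best match, MTFMT, a mitochondrial formyltransferase (0.865).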

How the data were processed

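The authors deposited raw read counts per gene, 1 table per experiment, not normalized. The build was GRCh38.p13, per the submitters' processing notes, which list STAR 2.7.9a, Trim Galore 0.6.7, DESeq2 1.46.0, Picard 2.8.0 and Subread 2.0.3 with featureCounts. Annotation release and strand setting are not given in the sources used here. The 6 libraries of an experiment were fitted together in edgeR 4.0.16 (R 4.3.3), with its default expression filter, TMM factors, two-sided quasi-likelihood test, Benjamini-Hochberg adjustment over all genes tested, called under 0.05. Standard errors came from the F statistic. The difference of the changes used all 12 libraries. RPKM used the deposited gene lengths. The fits were tested on simulated counts with a constant dispersion and no outlying library. That test does not cover a library such as shDDX5 replicate 1 or changes in genes with as few reads as CIART. Groups came from the labels, and p-values measure the spread between replicates. The labels do not say whether replicate numbers mark a shared culture or day. Correlations of same-numbered deviations were -0.187 to 0.071 in the knockdown and -0.251 to 0.059 in the compound experiment. With 3 libraries per group these values cannot decide it, so a replicate block was fitted as an alternative. The 10 members, the lists and the named genes (all members, DDX5, overlapping partners, listed genes, closest patterns) were chosen with earlier results of these data known, and 3 listed genes are not reported here. The 8 ratios of genes were taken per library.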

Additional observations from a re-analysis of the deposited data

How the results depend on the processing

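Alternatives were DESeq2 1.42.0, RLE factors, no filter, a stricter filter, a correction for gene length, a replicate block, 1 fit of all 12 libraries, and leaving out each library. None reversed a clock gene: 131 of 139 values kept their call in the knockdown, 135 of 140 in the compound experiment and 18 of 20 for the difference. Leaving out libraries moved the members called higher in the knockdown to between 1 and 2 and the lower ones to between 5 and 7. Members lower with RX-5902 moved to between 7 and 8. The other clock genes called higher in the knockdown moved from 5 to between 4 and 7. Those called lower with RX-5902 moved to between 1 and 2. PER2 had an adjusted p of 0.0579 to 0.0632 where its call was lost, TEF of 0.054 to 0.0921 and DBP of 0.0655 to 0.138, or 0.158 with DESeq2 and 0.201 in the fit of 12 libraries. PER3 gained a knockdown call in the fit of 12 libraries (0.0283) and without shDDX5 replicate 2 (0.0386). The difference for PER2 was called by DESeq2 (0.0497) and without shDDX5 replicate 1 (1.94e-05). CIART had no value under the stricter filter in the knockdown. With the replicate block, 7592 genes were called in the knockdown and 8696 with RX-5902, against 8204 and 8943, with 6 members lower and 2 higher, and 8 lower and 2 higher. BMAL1 and NR3C1 were not called in the knockdown with the block (0.0524 and 0.0643), and FKBP5 not with RX-5902 (0.0774). Over these settings, listed genes outside the members gained a call 15 times and lost one 16 times in the knockdown, and gained 7 and lost 23 with RX-5902, values left out by a filter included. The causes were not tested. Among the members, depth limits CIART most, at 4 to 48 reads per library.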

Other observations

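Inputs that can reset the clock were listed too. Of 9 genes induced by cAMP and CREB, 8 were tested in each experiment, and 5 rose and 1 fell in each, by edgeR. Of all genes tested, 56.7% were called in the knockdown and 64.1% with RX-5902. Without shDDX5 replicate 1 the knockdown counts were again 5 and 1, where 71.4% of all genes were called. With RX-5902 only 3 of the list were called higher by DESeq2, and 2 under the stricter filter. DUSP1, a phosphatase of MAP kinases, had 11.9, 11.3 and 11.1 CPM in shDDX5, against 4.83, 5.03 and 4.34 CPM in shControl libraries (log2 fold change 1.27, edgeR adjusted p = 4.33e-05). It had 0.772, 0.719 and 0.534 CPM with RX-5902, against 0.202, 0.101 and 0.1 CPM with DMSO (2.28, adjusted p = 3.88e-05). DUSP1 was near the limit of detection there, with 16, 15 and 11 reads with RX-5902, against 4, 2 and 2 reads with DMSO. FOS, an immediate early gene, rose in the knockdown (0.59, adjusted p = 0.000677) and was not called with RX-5902 (-0.18, adjusted p = 0.128). NR4A3, an orphan nuclear receptor, and PDE4B, a cAMP phosphodiesterase, rose in both (1.43 and 1.54 in the knockdown, 1.30 and 1.07 with RX-5902), and PDE4D fell in both (-0.60 and -0.28). In the DMSO libraries NR4A3 had 5, 6 and 7 reads and PDE4B had 10, 13 and 11 reads. Under the stricter filter DUSP1, NR4A3 and PDE4B had no value in the compound experiment, nor did PDE4B in the knockdown. NR4A1 rose in the knockdown (0.43, adjusted p = 0.0174), a call lost without shControl replicate 1 or 3 or shDDX5 replicate 3, at 0.0558 to 0.0716. CREM rose with RX-5902 (0.41), as did NR4A2 (0.46), though DESeq2 did not call NR4A2 or NR4A3 there.

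Of 7 genes of the glucocorticoid receptor and its targets, 6 were tested. In the knockdown 3 rose and 3 fell, where 56.7% of all genes tested were called. These counts were the same without shDDX5 replicate 1, where 71.4% of all genes were called. With RX-5902 5 rose and 1 was not called, where 64.1% of all genes were called. Only 4 of the list were called higher there by DESeq2, with the replicate block or with the length correction, where FKBP5 lost its call. ZBTB16, under the expression filter, was called lower with RX-5902 by DESeq2 and with no filter. It was near the limit of detection, with 1, 0 and 0 reads with RX-5902, against 4, 7 and 13 reads with DMSO. SGK1, a kinase of ion transport, rose in both, to 34.7 CPM in shDDX5 cells, against 15.5 CPM in shControl cells (1.16, adjusted p = 1.45e-05), and to 7.33 CPM with RX-5902, against 3.21 CPM with DMSO (1.19, adjusted p = 2.63e-09). KLF9, a transcription factor induced by the receptor, fell in the knockdown (-0.68, adjusted p = 0.000742) and rose with RX-5902 (0.46, adjusted p = 4.46e-06). NR3C1, the receptor itself, fell in the knockdown (-0.35, adjusted p = 0.0402), a call lost without any of the 3 shControl libraries or shDDX5 replicate 3 (0.0568 to 0.121), and was not called with RX-5902 (-0.03, adjusted p = 0.596). TSC22D3, FKBP5 and DUSP1 stand in 2 of the lists.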
